A study of Mus musculus with 15 samples.

Results

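The translation initiation factors and the eIF4E-binding proteins were taken from the expression table of the ventral striatum by symbol. Every gene whose symbol starts with Eif and a digit was a member if its mean value over all mice was at least 3 on the table's log2 scale, and pseudogenes were left out. This gave 52 members among the 15261 genes at or above that minimum and the 24982 genes in the table. Another 3 genes, *Eif3j1*, *Eif3j2* and *Eif4e1b*, had matching symbols and were listed at 0 in every mouse, so 55 symbols matched in all.

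The table covers the ventral striatum of 15 mice, 2 to 3 months old and taken after behavioral tests, each sequenced as its own library. The males were 4 WT and 3 *Fmr1* KO mice and the females 4 WT and 4 *Fmr1* KO mice, all on C57BL/6J. The *Fmr1* KO mice were hemizygous males or homozygous females bred within their own line, and the controls were WT mice of the same strain rather than littermates. The authors had left out a further *Fmr1* KO male after principal component analysis. The values are regularized log values (rlog), which are on a log2 scale and corrected for library size, and in which weakly expressed genes are shrunk toward their own mean. Since no read totals come with them, depth is unknown and precision was judged from the spread between mice.

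Initiation begins when eIF2, loaded with GTP and the initiator tRNA, joins eIF1, eIF1A, eIF3 and eIF5 on the small ribosomal subunit. The cap-binding protein eIF4E, the scaffold eIF4G and the helicase eIF4A form eIF4F, which brings the mRNA to that subunit. The eIF4E-binding proteins (4E-BPs) compete with eIF4G for eIF4E until mTOR phosphorylates them. Stress kinases phosphorylate the alpha subunit of eIF2, which then blocks its exchange factor eIF2B. FMRP, the protein that *Fmr1* encodes, binds mRNAs and represses their translation, in part through CYFIP1, which can bind eIF4E. Enhanced cap-dependent translation has been reported in the *Fmr1* KO brain, and these data hold mRNA levels and no measure of protein, phosphorylation or translation.

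The coding sequences show where these proteins meet their regulators, and why some members are hard or easy to tell apart in reads. They come from the GENCODE annotation of GRCm38, the build the authors used under its name mm10, and each lies within a coding exon. In the first set, the capitals are the codons of the motif that docks on eIF4E, a tyrosine, any 4 residues, a leucine and a hydrophobic residue. It is shared by the 4E-BPs and the eIF4G scaffolds that compete for that surface. The positions are chr8:27273328-27273366 (plus strand) for *Eif4ebp1*, chr10:61435060-61435098 (minus strand) for *Eif4ebp2*, chr16:20681212-20681250 (plus strand) for *Eif4g1* and chr4:138156641-138156679 (plus strand) for *Eif4g3*.
Eif4ebp1: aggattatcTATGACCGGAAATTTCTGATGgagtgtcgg
Eif4ebp2: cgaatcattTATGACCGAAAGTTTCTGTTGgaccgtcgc
Eif4g1: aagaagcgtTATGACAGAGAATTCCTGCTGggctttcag
Eif4g3: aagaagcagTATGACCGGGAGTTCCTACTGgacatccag

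In the second set, the capitals are the serine codon of *Eif2s1* that the eIF2alpha kinases phosphorylate, codon 52 counted from the start codon, at chr12:78866665-78866697 (plus strand). In the third set, they are the lysine codon of the eIF5A proteins that is turned into hypusine, codon 50 in both, at chr11:69919151-69919183 (minus strand) for *Eif5a* and chr3:28782184-28782216 (plus strand) for *Eif5a2*.
Eif2s1: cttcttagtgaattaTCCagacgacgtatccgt
Eif5a: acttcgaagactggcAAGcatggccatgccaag
Eif5a2: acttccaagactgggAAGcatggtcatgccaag

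The last set is the first 60 coding bases of the X and Y copies of the eIF2 gamma subunit, at chrX:94212574-94212633 (minus strand) and chrY:1010617-1010676 (plus strand). The capitals are the 13 bases at which the copies differ.
Eif2s3x: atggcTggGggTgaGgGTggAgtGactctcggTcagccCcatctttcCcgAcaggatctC
Eif2s3y: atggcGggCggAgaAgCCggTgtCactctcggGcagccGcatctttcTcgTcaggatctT
Over the whole coding sequence the copies were 86.3% identical. No stretch of 150 bases, the read length, occurred in the principal annotated transcripts of both, and other transcripts were not compared. The same held for *Eif1* and *Eif1b* (81.1% identical), *Eif1a* and *Eif1ax* (85.6%), *Eif4a1* and *Eif4a2* (77.8%) and *Eif5a* and *Eif5a2* (72.7%). By contrast, *Eif3j1* and *Eif3j2*, both listed at 0, were 99.2% identical, and 77.1% of the stretches of that length in *Eif3j2* also occurred in *Eif3j1*, while 32.7% of those in *Eif3j1* occurred in *Eif3j2*. How reads shared by the pair were counted is not given in the sources used here, so nothing is read from their zeros. *Eif4e3* and *Eif4ebp3* each overlap another coding gene on the same strand, and their values are uncertain for that reason.

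Levels of different genes were compared per length, as rlog minus the log2 of the longest annotated transcript in kb, in the 8 WT mice. On this scale the helicase *Eif4a2* was the highest member, at 11.97 ± 0.07 (SD, n = 8), 7.62 times the median member. It was followed by *Eif5a* at 11.41 ± 0.08, by *Eif1*, which guards start codon choice, at 11.26 ± 0.18, by the eIF4A cofactor *Eif4h* at 10.98 ± 0.09 and by *Eif4a1* at 10.97 ± 0.06. The ranges of *Eif5a* (11.34 to 11.58) and *Eif1* (11.06 to 11.48) overlapped over the 8 mice. Every WT male was above every WT female in *Eif1*, so its spread holds a difference between the sexes. The order of these genes within each sex was not compared. *Eif4h* and *Eif4a1* did not differ beyond their spread. The 12 subunits of eIF3, the scaffold of the small subunit complex, ran from 9.13 ± 0.10 for *Eif3f*, at rank 25 of the 52, to 10.79 ± 0.09 for *Eif3h*.

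The regulators ranged from the bottom to the middle of this scale. *Eif4ebp1*, the 4E-BP best known from other tissues, was the lowest member at 3.47 ± 0.04 (SD, n = 8), and *Eif4ebp2*, the main 4E-BP of the brain, was at rank 50 of the 52 with 6.19 ± 0.10. *Eif4ebp3* was at 7.10 ± 0.06 and *Eif4enif1*, which carries eIF4E into the nucleus and into mRNA granules, at 8.77 ± 0.12. Among the eIF2alpha kinases, *Eif2ak2* (PKR, which senses double-stranded RNA) was lowest at 5.87 ± 0.12 and *Eif2ak1* (HRI, which senses heme) highest at 8.83 ± 0.07. *Eif2ak4* (GCN2, which senses uncharged tRNA) was at 7.06 ± 0.06 and *Eif2ak3* (PERK, which senses endoplasmic reticulum stress) at 7.25 ± 0.05. The eIF2B subunits ran from 6.48 ± 0.09 for *Eif2b3* to 8.99 ± 0.03 for *Eif2b5*. The order depends on the transcript length assumed. With the median transcript length, *Eif4e* moved from rank 32 to rank 6 and *Eif4g2*, a scaffold that does not bind eIF4E, from rank 7 to rank 1, *Eif3f* moved from rank 25 to rank 31 and *Eif2b5* from rank 27 to rank 22, while *Eif4ebp1* stayed at rank 52.

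**Figure D1:**
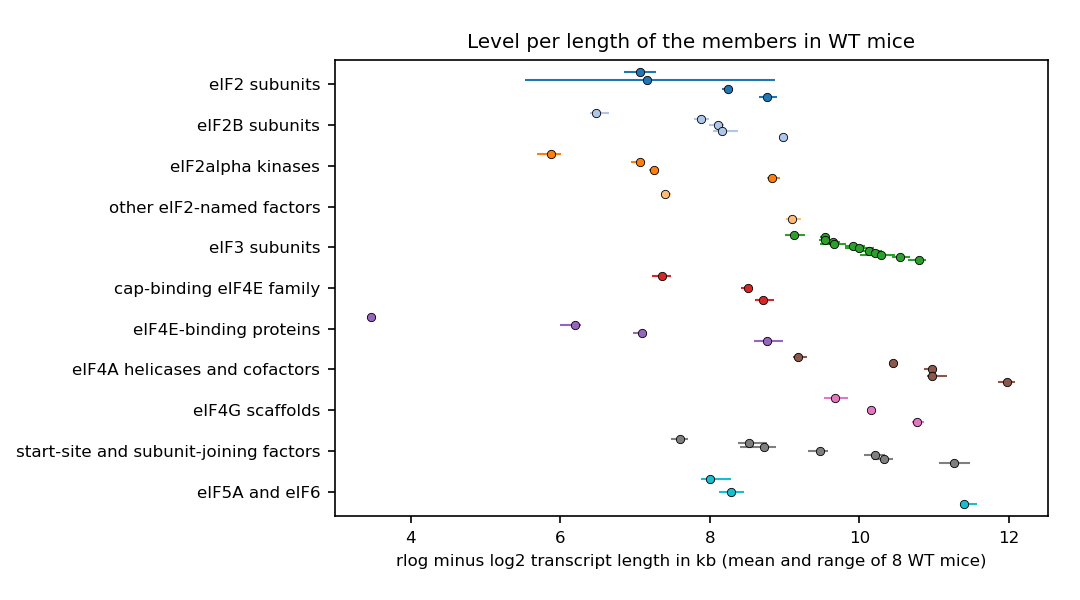
Level per length (rlog minus log2 of the longest transcript in kb, horizontal axis) of the 52 members in WT mice, by complex. Points are means of 8 mice and lines run from the lowest to the highest mouse. The eIF3 subunits lie between 9.13 and 10.79, *Eif4ebp1* is lowest at 3.47, and the long line is the Y-linked *Eif2s3y*, at 5.53 in the lowest female and 8.87 in the highest male.

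The members varied little between mice of a group. The SD within groups had a median of 0.07 log2 over the 52 members and 0.09 over all 15261 genes tested, and ran from 0.03 for *Eif3c* to 0.12 for *Eif2ak2*.

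The first comparison asked whether the mRNAs of the initiation machinery differed between *Fmr1* KO and WT mice. Over both sexes, with sex as a term, no initiation factor passed an adjusted p of 0.05 in limma, against 1.28% of all genes tested. That share rests on single mice, since the 196 genes called became 5 without WT female 3 and 1444 without WT female 1. The authors, with DESeq2 on read counts, reported far more genes by genotype, over both sexes and in each sex, than limma called here on rlog values. At an unadjusted p of 0.05, 3 members were higher and 4 lower in *Fmr1* KO mice, 13.5% of the 52, where 23.4% of all genes passed. Fold changes ran from −0.11 for *Eif1* to 0.15 for *Eif5a2* on the log2 scale, with a median of −0.01, and 24 members lay above and 28 below 0. The median size of the change was 0.04 among the members and 0.06 among all genes. The intervals were narrow, and for 51 of the 52 members the 95% interval of the fold change stayed within 0.25 log2 of 0, which held for 74.5% of all genes. The exception was *Eif5a2*. Giving each mouse a weight by its quality ended this absence of calls, with 10 members called, 5 higher and 5 lower, among 4767 genes called in all. Leaving out single mice gave up to 2 calls, *Eif2b3* and *Eif5a2* without WT male 3, *Eif5a2* alone without WT female 1 or *Fmr1* KO female 2, and *Eif1* alone without *Fmr1* KO female 4.

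**Figure D2:**
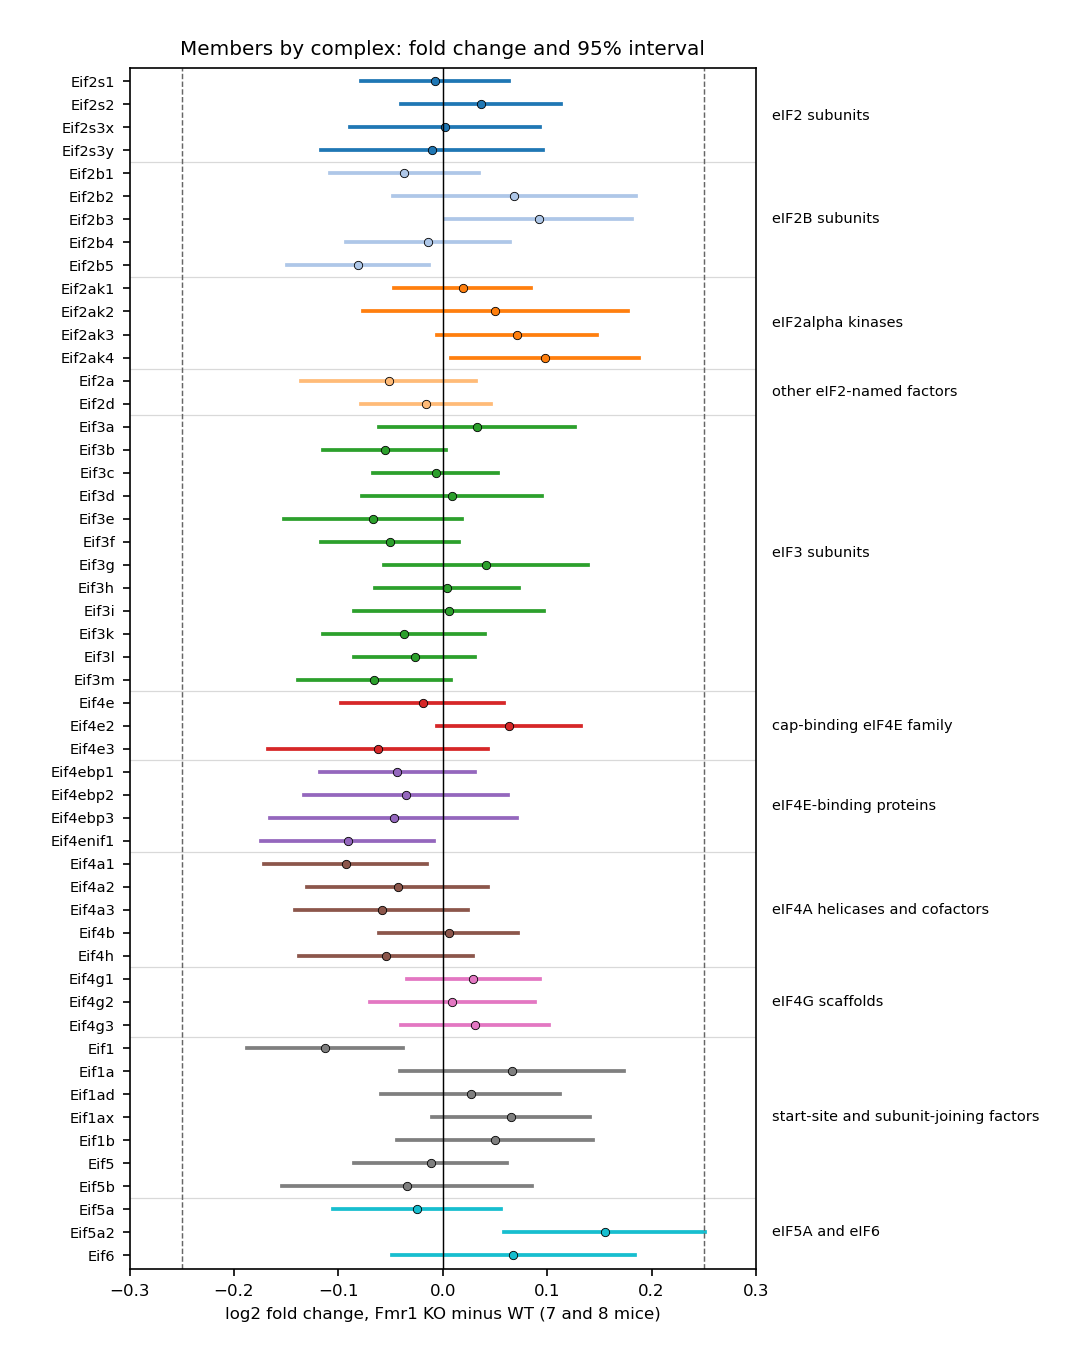
Log2 fold change of *Fmr1* KO minus WT over both sexes (horizontal axis) for each of the 52 members, grouped by complex. Points are limma estimates from 7 *Fmr1* KO and 8 WT mice, bars are 95% intervals and dashed lines mark 0.25 log2 on either side of 0; 51 of the 52 intervals lie between them and that of *Eif5a2* ends at 0.251.

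The *Fmr1* transcript itself separated the genotypes in every mouse, from 10.62 to 10.88 in the WT mice and from 9.82 to 10.08 in the *Fmr1* KO mice. By qPCR of the striatum the authors found *Fmr1* mRNA very low though detectable in *Fmr1* KO mice, and by western blot no FMRP. Some cell type markers also moved with genotype. All 20 striatal projection neuron markers were on the lower side in *Fmr1* KO mice, with a median of −0.48 log2 and 2 called (*Penk* and *Pdyn*). Their mean deviation from the average mouse ran from −0.03 to 0.36 in WT males, −0.26 to 0.41 in WT females, −0.38 to 0.09 in *Fmr1* KO males and −0.84 to −0.05 in *Fmr1* KO females. The 12 markers of thalamus, hypothalamus and septum all leaned higher, by a median of 0.47 with none called, and their score ran from −0.50 to 0.16 in WT males, −0.47 to 0.25 in WT females, 0.07 to 0.92 in *Fmr1* KO males and −0.48 to 0.95 in *Fmr1* KO females. None of the markers was at 0. All 8 microglial markers were on the lower side with none called. Their score ran from −0.15 to 0.31 in WT males and from −0.17 to 0.08 in *Fmr1* KO males. In females the genotypes did not overlap, at 0.05 to 0.15 in WT and −0.15 to −0.04 in *Fmr1* KO mice. Over both sexes, cortical excitatory neuron markers had 4 higher and 2 lower, and astrocyte markers 4 and 3. Oligodendrocyte markers had 9 and 1, choroid plexus markers 7 and 1, and all 6 endothelial markers were lower. No gene of these lists was called, and their medians ran from −0.07 to 0.17. The cortical score ran from −0.76 to 0.52 in WT females and −0.77 to 1.28 in *Fmr1* KO females. The part of these markers in the values of the members was not tested. Fits with a marker score called no member by genotype, but none was called without a score either, so they cannot show it. Among all genes, the 196 called over both sexes, a count that also rests on single mice, became 1 after adjustment for the projection neuron score. With the neighboring-region score, chosen after seeing the data, 11 genes were called. In bulk tissue, fewer cells of a type and less RNA per cell cannot be told apart.

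The eIF2 subunits were the closest to 0. The alpha subunit *Eif2s1*, the target of the stress kinases, was −0.01 (95% interval −0.08 to 0.06) over both sexes and the beta subunit *Eif2s2* was 0.04 (−0.04 to 0.11). The X copy of the gamma subunit, *Eif2s3x*, was 0.00 (−0.09 to 0.09) and the Y copy *Eif2s3y* −0.01 (−0.12 to 0.10).

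Over both sexes all 4 eIF2alpha kinases were on the higher side in *Fmr1* KO mice and none was called. In males alone 3 were on the higher side and *Eif2ak1* was −0.02. Their median was 0.06, against 0.00 over all genes. *Eif2ak4* was furthest, with values of 9.35, 9.48, 9.54 and 9.43 in WT males and 9.55, 9.63 and 9.55 in *Fmr1* KO males. Every *Fmr1* KO male was above every WT male. In females the groups overlapped, with 9.52, 9.48, 9.46 and 9.49 in WT and 9.65, 9.39, 9.67 and 9.54 in *Fmr1* KO mice. Over both sexes the difference was 0.10 ± 0.04 (SE), with an adjusted p of 0.179 by limma. *Eif2ak3* was 0.07 (95% interval −0.01 to 0.15), *Eif2ak2* 0.05 (−0.08 to 0.18) and *Eif2ak1* 0.02 (−0.05 to 0.08).

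The eIF2B subunits, which reload eIF2 with GTP, pointed both ways. The catalytic epsilon subunit *Eif2b5* was at 10.37, 10.38, 10.32 and 10.32 in WT males and at 10.17, 10.22 and 10.27 in *Fmr1* KO males, with no overlap. WT females had 10.30, 10.35, 10.35 and 10.32 and *Fmr1* KO females 10.28, 10.33, 10.18 and 10.35, which overlapped. The difference over both sexes was −0.08 ± 0.03 (SE; adjusted p by limma = 0.145). The gamma subunit *Eif2b3* leaned the other way at 0.09 ± 0.04 (SE; adjusted p by limma = 0.202), with WT males at 8.34, 8.31, 8.56 and 8.32 and *Fmr1* KO males at 8.46, 8.45 and 8.46. WT females had 8.41, 8.35, 8.46 and 8.36 and *Fmr1* KO females 8.54, 8.40, 8.54 and 8.52, and the genotypes overlapped in each sex. The beta subunit *Eif2b2* was 0.07 (95% interval −0.05 to 0.18). *Eif2a*, a separate factor that can deliver the initiator tRNA, was −0.05 (−0.14 to 0.03).

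Of the 12 eIF3 subunits, 5 were on the higher and 7 on the lower side, none passed an unadjusted p of 0.05 in limma over both sexes, and the median was −0.02. The changes furthest from 0 on the lower side were those of *Eif3e*, at −0.07 (95% interval −0.15 to 0.02), and *Eif3m*, at −0.07 (−0.14 to 0.01). *Eif3b*, which holds the core of the complex together, was −0.06 (−0.11 to 0.00) and *Eif3h* 0.00 (−0.07 to 0.07). The exact permutation test within sexes gave unadjusted p of 0.0229 for *Eif3b* and 0.0433 for *Eif3m*. It was run only on members chosen in part for small p-values or large changes in these data.

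In the eIF4 group, the cap-binding protein *Eif4e* was at 11.03, 11.09, 11.17 and 10.99 in WT males and at 11.04, 10.996 and 10.95 in *Fmr1* KO males. WT females had 10.92, 10.97, 11.09 and 10.94 and *Fmr1* KO females 11.04, 10.97, 11.01 and 11.01. The genotypes overlapped in both sexes, and the difference was −0.02 (95% interval −0.10 to 0.06). *Eif4e2*, a cap-binding protein that represses rather than starts translation, was 0.06 (−0.01 to 0.13). The 3 eIF4G scaffolds leaned higher, by a median of 0.03, and *Eif4g1* was 0.03 (−0.03 to 0.09).

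The 4 eIF4E-binding proteins were all on the lower side in each sex and over both, with a median of −0.05 over both, and none was called. *Eif4ebp2* was at 8.53, 8.65, 8.70 and 8.81 in WT males, 8.56, 8.71 and 8.71 in *Fmr1* KO males, 8.80, 8.80, 8.70 and 8.80 in WT females and 8.62, 8.67, 8.77 and 8.82 in *Fmr1* KO females. The groups overlapped, and the difference was −0.04 (95% interval −0.13 to 0.06). *Eif4ebp1* was −0.04 (−0.12 to 0.03), at a mean level so low that its rlog values are strongly drawn together, and *Eif4ebp3* was −0.05 (−0.17 to 0.07). *Eif4enif1* was −0.09 ± 0.04 (SE; adjusted p by limma = 0.172), with WT males at 10.49, 10.60, 10.60 and 10.59 above *Fmr1* KO males at 10.45, 10.48 and 10.44. The females, at 10.62, 10.77, 10.87 and 10.72 in WT and 10.64, 10.76, 10.58 and 10.71 in *Fmr1* KO mice, overlapped.

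Of the 5 eIF4A helicases and cofactors, 4 were on the lower side. *Eif4a1* was at 11.83, 11.85, 11.87 and 11.77 in WT males and 11.68, 11.67 and 11.71 in *Fmr1* KO males, with no overlap. The females overlapped, with 11.70, 11.76, 11.84 and 11.78 in WT and 11.70, 11.76, 11.59 and 11.82 in *Fmr1* KO mice. The difference over both sexes was −0.09 ± 0.04 (SE; adjusted p by limma = 0.146).

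*Eif1* and *Eif5a2* were furthest from 0. *Eif1* was at 11.88, 11.77, 11.84 and 11.83 in WT males and 11.66, 11.64 and 11.77 in *Fmr1* KO males. WT females had 11.47, 11.51, 11.53 and 11.52 and *Fmr1* KO females 11.39, 11.47, 11.29 and 11.50. The male groups met without overlapping and the female groups overlapped. The difference over both sexes was −0.11 ± 0.04 (SE; adjusted p by limma = 0.0818), and a 2-sided exact permutation test within sexes gave an unadjusted p of 0.00327.

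*Eif5a2*, the less abundant of the hypusine-bearing factors that help ribosomes through difficult stretches, was at 10.75, 10.68, 10.78 and 10.65 in WT males and 10.91, 10.79 and 10.87 in *Fmr1* KO males. In females it was at 10.58, 10.48, 10.50 and 10.46 in WT and 10.64, 10.54, 10.89 and 10.62 in *Fmr1* KO mice. The males did not overlap, and the females overlapped through a single *Fmr1* KO mouse. The difference over both sexes was 0.15 ± 0.05 (SE; adjusted p by limma = 0.0726; unadjusted exact permutation p within sexes = 0.00245). Its major relative *Eif5a* was −0.02 (95% interval −0.11 to 0.06), and *Eif6*, which keeps the large ribosomal subunit from joining early, was 0.07 (−0.05 to 0.18).

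**Figure D3:**
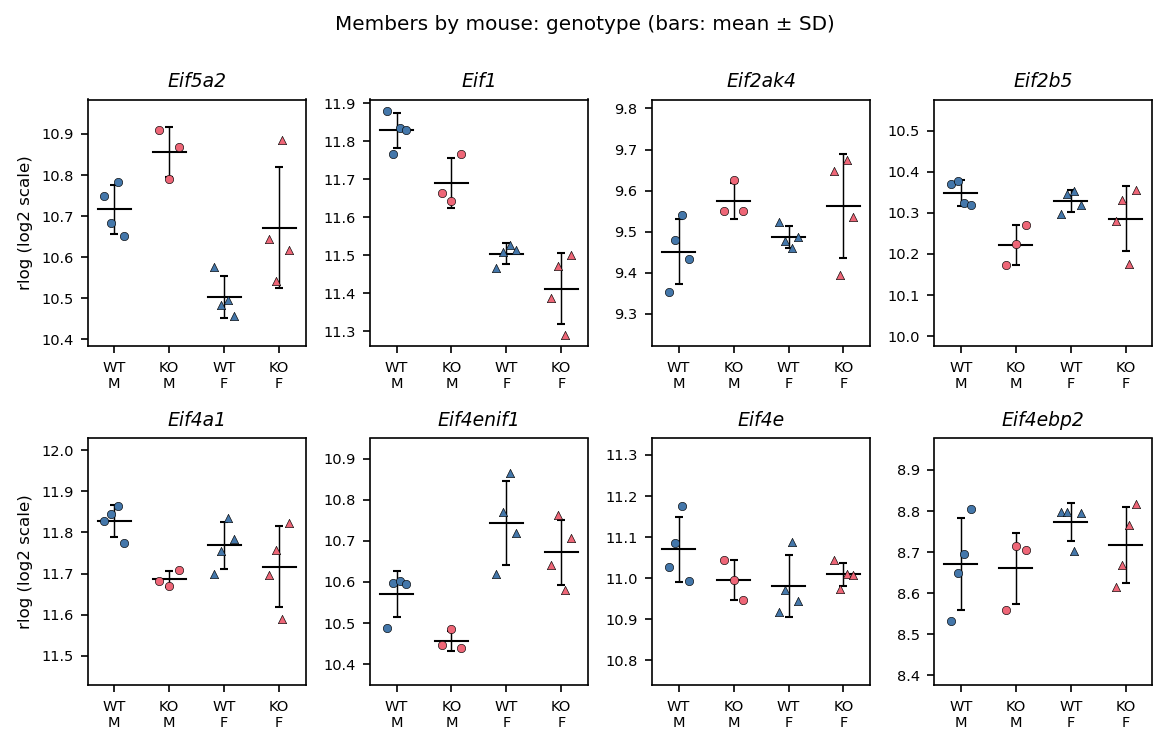
rlog values (vertical axes, log2 scale, each panel with its own range) of 8 members in every mouse. Circles are males and triangles females, blue is WT and red *Fmr1* KO, and bars are group means ± SD of 3 or 4 mice. *Eif1* is lower and *Eif5a2* higher in *Fmr1* KO than in WT males without overlap, and *Eif4e* and *Eif4ebp2* overlap in both sexes.

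Each sex was also fitted alone. In males no member was called by limma, against 0.00655% of all genes, so the absence of calls says little about the members. At an unadjusted p of 0.05, 1 member was higher (*Eif5a2*) and 7 were lower, together 15.4% of the members and 17.2% of all genes. The lower members were *Eif1*, *Eif2a*, *Eif2b5*, *Eif3e*, *Eif3m*, *Eif4a1* and *Eif4enif1*. The 3 *Fmr1* KO males did not overlap the 4 WT males in 11 members, 2 higher and 9 lower, which is 21.2% of the members against 15.2% of all genes. Of the 52 members, 37 were on the lower side in males, or 71.2%, against 49.9% of all genes, and all 7 start-site and subunit-joining factors were among them. Choroid plexus markers moved with genotype in males, with 7 of 8 on the higher side, none called, and scores from −0.35 to 0.00 in WT and 0.37 to 0.51 in *Fmr1* KO males. Their part in the male values was not tested. The 95% interval stayed within 0.25 log2 of 0 for 45 members in males, 86.5% of the members and 55% of all genes.

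In females no member was called by limma either, against 0.0131% of all genes, so here too the absence of calls says little. The unadjusted threshold passed 4 members, all higher, which is 7.69% of the members and 14.5% of all genes. They were *Eif4e2*, *Eif1a*, *Eif1ax* and *Eif5a2*. The female genotypes did not overlap in 4 members, 7.69% of them and 7.48% of all genes, with *Eif1ax* and *Eif4e2* higher and *Eif3f* and *Eif4a3* lower. *Eif4e2* was at 10.30, 10.29, 10.28 and 10.34 in WT and at 10.38, 10.45, 10.44 and 10.47 in *Fmr1* KO females, a difference of 0.13 ± 0.04 (SE; adjusted p by limma = 0.248). In males it was at 10.22, 10.32, 10.31 and 10.34 in WT and 10.25, 10.29 and 10.31 in *Fmr1* KO mice, −0.01 ± 0.05 (SE), which overlapped. Of the 7 start-site and subunit-joining factors, 6 were on the higher side in females. The interval stayed within 0.25 log2 of 0 for 48 members in females, 92.3% of the members and 57.4% of all genes.

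The difference between the sexes in the genotype effect was tested as an interaction. It was called for no member and for 0% of all genes. At an unadjusted p of 0.05 it passed 1 member, *Eif4e2*, or 1.92% of the members, and 5.98% of all genes. Its estimate for *Eif4e2* was 0.14 ± 0.06 (SE; adjusted p by limma = 0.791). No member separated the genotypes without overlap in the same direction in both sexes, which 0.76% of all genes did.

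**Figure D4:**
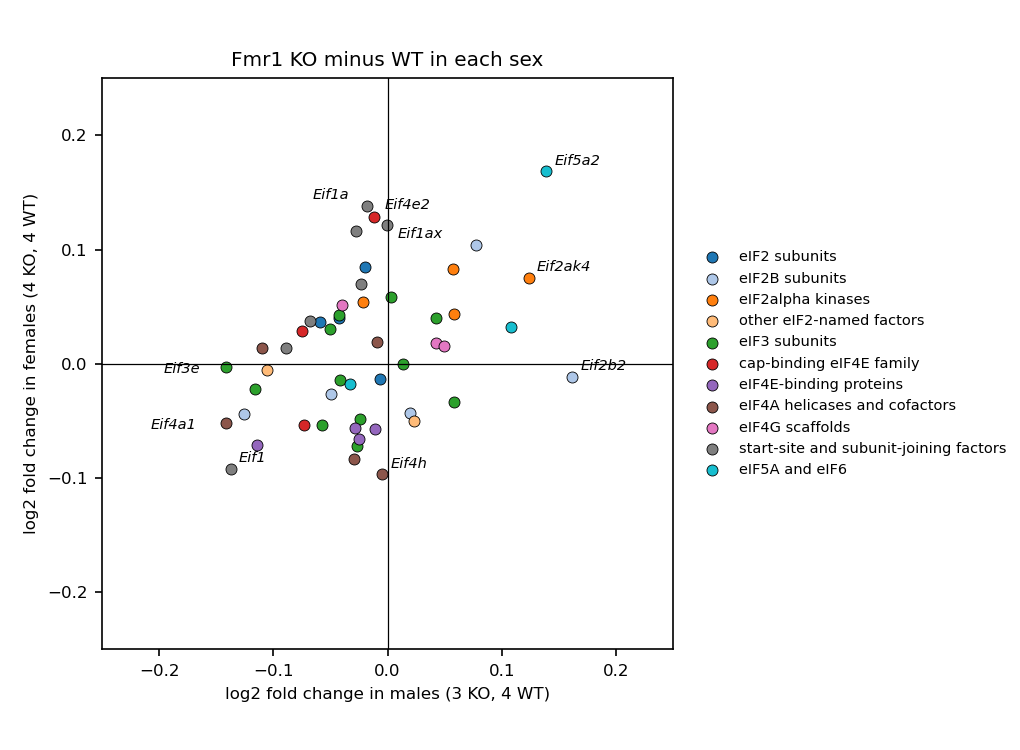
Log2 fold change of *Fmr1* KO minus WT in males (horizontal axis, 3 and 4 mice) and in females (vertical axis, 4 and 4 mice) for the 52 members, colored by complex. *Eif5a2* is on the higher side in both sexes, at 0.14 and 0.17, and *Eif4e2* lies at −0.01 in males and 0.13 in females; the sexes were not shown to differ for any member.

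The rest of the pathway was read from 3 lists. Of 24 regulators of eIF4F (mTOR complex, MNK, S6 kinase, CYFIP and poly(A)-binding protein genes), none was called over both sexes by limma, and 2 were higher and 5 lower at the unadjusted threshold, 29.2% of the list against 23.4% of all genes. They included *Mknk1*, a kinase that phosphorylates eIF4E, at −0.11 ± 0.04 (SE; adjusted p = 0.0917), *Tsc2*, a brake on mTOR, at −0.11 ± 0.04 (SE; adjusted p = 0.0987), and *Cyfip2*, a relative of CYFIP1 that also binds FMRP, at −0.18 ± 0.06 (SE; adjusted p = 0.103). *Mknk1* and *Tsc2* had the 2 smallest p-values by limma, and *Cyfip2* was named beside them. Of the whole list, 13 genes were on the higher and 11 on the lower side. Of 21 tested genes of the integrated stress response, the program that eIF2alpha phosphorylation turns on, none was called, and 5 were higher and 0 lower at the unadjusted threshold, 23.8% of the list, close to the 23.4% of all genes. *Dnajc3*, an inhibitor of eIF2alpha kinases, was 0.12 ± 0.03 (SE; adjusted p by limma = 0.0596), *Impact*, an inhibitor of GCN2, 0.28 ± 0.11 (SE; adjusted p = 0.147), and the transcription factor *Atf4* 0.10 ± 0.04 (SE; adjusted p = 0.179). Here *Dnajc3* and *Impact* had the 2 smallest p-values, and *Atf4* was named beside them. In this list 11 genes were on the higher and 10 on the lower side, down to −0.14. Of 17 elongation and release factors, none passed even the unadjusted threshold. The list medians were 0.01, 0.02 and 0.00, against 0.00 over all genes.

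More members were called between the sexes than between the genotypes. Between WT females and WT males 4 members were called, 1 higher and 3 lower, where 2.82% of all genes were called. Between *Fmr1* KO females and males 4 were also called, 2 higher and 2 lower, with 0.832% of all genes called. *Eif1*, *Eif2s3x* and *Eif2s3y* were called in both genotypes, *Eif3m* in WT mice and *Eif3h* in *Fmr1* KO mice.

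The eIF2 gamma subunit is encoded on both sex chromosomes in the mouse, and *Eif2s3x* is known to escape X inactivation. *Eif2s3x* was at 8.71, 8.82, 8.86 and 8.74 in WT males and 9.05, 9.07, 9.14 and 9.06 in WT females. *Fmr1* KO males had 8.71, 8.78 and 8.74 and *Fmr1* KO females 9.20, 9.13, 9.20 and 8.94. Every female was above every male, by 0.29 ± 0.06 (SE; adjusted p by limma = 0.0168) in WT and 0.38 ± 0.06 (SE; adjusted p by limma = 0.0139) in *Fmr1* KO mice. The WT call was lost without WT female 2 or WT female 4, at adjusted p of 0.054 and 0.0515 by limma, and the *Fmr1* KO call was lost without any single *Fmr1* KO male, at adjusted p from 0.0628 to 0.0877. *Ddx3x*, *Kdm6a* and *Kdm5c*, other X-linked genes known to escape inactivation, were higher in females than in males by 0.24, 0.35 and 0.21 on average. The other X-linked member, *Eif1ax*, was not called and leaned the other way. It was at 11.87 to 11.96 in WT males and 11.68 to 11.83 in WT females, without overlap. In *Fmr1* KO mice the sexes overlapped, at 11.89 to 11.94 in males and 11.83 to 11.96 in females.

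*Eif2s3y* was at 9.40, 9.75, 9.63 and 9.58 in WT males and 9.65, 9.59 and 9.51 in *Fmr1* KO males. WT females had 6.42, 6.46, 6.60 and 6.41 and *Fmr1* KO females 6.50, 6.40, 6.43 and 6.50. The fitted difference was −3.12 in WT mice (adjusted p by limma = 9.32e-13) and −3.13 in *Fmr1* KO mice (adjusted p by limma = 2.68e-12). The other Y genes *Ddx3y*, *Uty* and *Kdm5d* also stood at 5.88 to 6.90 in females, on a scale that shrinks low counts toward the mean of each gene. The female values are not read as a Y transcript, and their source was not tested. In WT males the Y copy was at 8.71 ± 0.15 (SD, n = 4) per length and the X copy at 6.92 ± 0.07, and at 7.54 with the median transcript length of the X copy.

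*Eif1* had the largest sex difference of the autosomal members in WT mice. Every male, at 11.64 to 11.88, was above every female, at 11.29 to 11.53, and the difference was −0.32 ± 0.05 (SE; adjusted p by limma = 0.00446) in WT and −0.28 ± 0.05 (SE; adjusted p by limma = 0.0226) in *Fmr1* KO mice. The WT call was kept in every alternative run, and the *Fmr1* KO call was lost without *Fmr1* KO male 1, 3 or 4, at adjusted p from 0.079 to 0.141 by limma.

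*Eif3m* was at 10.11, 10.08, 10.18 and 10.09 in WT males and 9.86, 9.95, 10.02 and 9.84 in WT females, with no overlap, a difference of −0.20 ± 0.04 (SE; adjusted p by limma = 0.0299). In *Fmr1* KO mice it was at 9.997, 10.03 and 9.97 in males and 9.94, 9.88, 9.84 and 9.92 in females, −0.10 ± 0.05 (SE; adjusted p by limma = 0.3). The WT call was lost when WT male 2, 3 or 4 or WT female 1, 2 or 4 was left out, at adjusted p from 0.0549 to 0.108. *Eif3h* was at 11.07, 11.07 and 11.04 in *Fmr1* KO males and 11.33, 11.25, 11.26 and 11.26 in *Fmr1* KO females, with no overlap, a difference of 0.22 ± 0.05 (SE; adjusted p by limma = 0.0428). In WT mice, with males at 11.19, 11.04, 11.14 and 11.03 and females at 11.24, 11.26, 11.27 and 11.17, it was 0.13 ± 0.04 (SE; adjusted p by limma = 0.127) and the groups overlapped through WT male 1. The *Fmr1* KO call of *Eif3h* was lost in 14 of the alternatives. The choroid plexus markers also differed between these mice, with all 8 on the lower side in *Fmr1* KO females, 1 called, and scores from 0.37 to 0.51 in the males and −0.46 to 0.22 in the females. Their part in these differences was not tested.

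The groups of females and males did not overlap for 13 members in WT mice, 25% of them against 9.99% of all genes, and for 19 in *Fmr1* KO mice, 36.5% against 17.8%. For 9 members this held in both genotypes in the same direction, 17.3% of the members and 3.93% of all genes. *Eif2ak1*, *Eif2s3x*, *Eif4enif1*, *Eif4g3* and *Eif5b*, which joins the ribosomal subunits, were higher in every female of each genotype than in every male of it, and *Eif1*, *Eif2s3y*, *Eif3f* and *Eif3m* were lower. The kinase *Eif2ak1* was at 10.87 to 10.91 in WT males and 10.94 to 11.05 in WT females, 0.12 ± 0.04 (SE; adjusted p by limma = 0.155). In *Fmr1* KO mice it was at 10.83 to 10.90 in males and 10.97 to 11.14 in females, 0.19 ± 0.04 (SE; adjusted p by limma = 0.0561). With 4 mice against 4, or 3 against 4, an exact 2-sided permutation test of 1 gene cannot go below p = 0.0286.

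**Figure D5:**
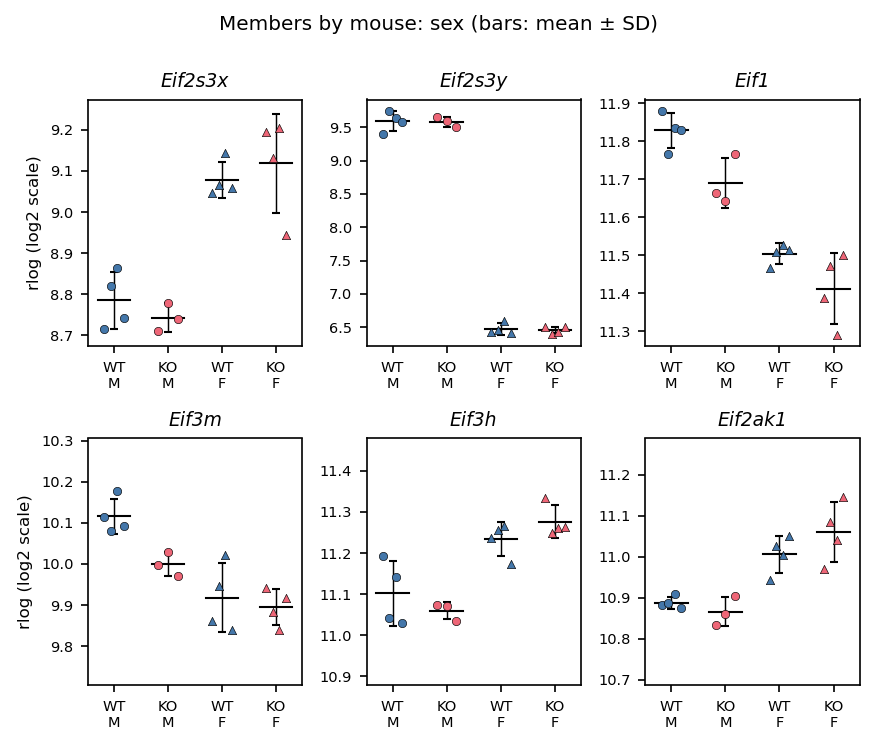
rlog values (vertical axes, log2 scale, each panel with its own range) of the 5 members called between the sexes in either genotype and of *Eif2ak1*, in every mouse. Circles are males and triangles females, blue is WT and red *Fmr1* KO, and bars are group means ± SD of 3 or 4 mice. *Eif2s3x* and *Eif2ak1* are higher and *Eif2s3y*, *Eif1* and *Eif3m* lower in females of each genotype without overlap, and *Eif3h* overlaps between the WT sexes.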

How the data were processed

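Stranded mRNA libraries were read as paired ends, aligned to mm10 with STAR and turned by the authors, with DESeq2, into the deposited rlog values (log2 scale). Whether counting used strand is not given in the sources used here.

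The 15261 genes at or above a mean rlog of 3 were all fitted in limma 3.58.1 under R 4.3.3 (empirical Bayes, variance trend, 2-sided, Benjamini-Hochberg, threshold 0.05), and the members were read from that fit. Sex was an additive term over both sexes, each sex was also fitted alone, and a model of the 4 groups gave the interaction and sex differences. The fits were tested on simulated data with independent noise for each gene, which does not cover shifts that many genes share in a mouse. Exact permutation tests were run only on members chosen by the rule below, in part for small p-values or large changes in these data. Their p-values are unadjusted and carry that selection. A marker score is the mean deviation of a list's genes from their average over all mice. A rule chose 26 members (those called, the smallest p per complex, the largest changes and fixed regulators), and others are named beside them. Some of the 26 are given by mouse and the rest by group range or by fold change and interval. The members and lists were chosen with earlier results of these data known. Deviations of same-numbered mice correlated above 0.1 in 17 of 21 pairs, including the 3 of WT with *Fmr1* KO males but only 2 of the 4 in females. The labels do not say what the numbers mark, so the main fits did not use them. A structure shared by same-numbered mice was not excluded, and a replicate block was run as an alternative. Alternatives covered the minimum, variance trend, scaling, weights, replicate block, marker scores and leaving out each mouse. An *Fmr1* KO male that the authors excluded was not analysed here. Plots used matplotlib 3.10.9 (Python 3.11.15).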

Additional observations from a re-analysis of the deposited data

Results flagged for a closer look

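Among the 26 members chosen by rule, 78 groups of 4 mice were checked for a mouse far from the others, with 5 found, where chance gives about 1 in 20. *Eif2b3* stood at 8.56 in WT male 3, with the other WT males at 8.31 to 8.34, and at 8.40 in *Fmr1* KO female 2, with the others at 8.52 to 8.54. *Eif4ebp2* was at 8.70 in WT female 3, below the others at 8.80. *Eif4enif1* was at 10.49 in WT male 1, with the others at 10.59 to 10.60. *Eif6* was at 8.47 in *Fmr1* KO female 4, with the others at 8.59 to 8.61. The *Eif2b3* values go with the genotype call that *Eif2b3* gained when WT male 3 was left out, at 0.12 log2 (adjusted p by limma = 0.0461). No member's genotype effect differed between the sexes by the interaction test.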

How the results depend on the processing

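The count of members called by genotype over both sexes was 0, and 0 in males, in females and for the interaction. Sample quality weights gave 10 over both sexes (4767 genes in all) and 1 in males (*Eif4a1*), 11 between the WT sexes and 12 between the *Fmr1* KO sexes, in place of 4 and 4. With the projection neuron score in the model there were 8 and 8 for the sexes, and with the neighboring-region score, chosen after seeing the data, 9 between the WT sexes. Leaving out each mouse gave 0 to 2 calls over both sexes, 0 in each sex alone and for the interaction, 2 to 6 between the WT sexes and 1 to 10 between the *Fmr1* KO sexes. The 10 came without WT male 1 and the 1, *Eif2s3y* alone, without any *Fmr1* KO male. The median level per length was 9.04, 9.03 to 9.05 without single mice and 9.56 with the median transcript length. The cause was not tested. None of the results called in the main fit reversed. Reversal was counted only for called results, so it says nothing on the signs of the genotype and interaction results. Of 3426 results for the 26 members chosen by rule, 41 gained and 28 lost their call. With the number as a replicate block, the genotype and interaction counts of members stayed 0, in males too, and the sex counts were 6 and 6, while the genes called over both sexes went from 196 to 925. Same-numbered mice correlated in their deviations from −0.26 to 0.61, and from 0.13 to 0.37 for WT with *Fmr1* KO males.

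Nothing in the labels ties the mice to litters, and all *Fmr1* KO mice come from a separate line, so line and genotype cannot be told apart. The rlog scale shrinks differences of weakly expressed genes, *Eif4ebp1* above all, and the read depth behind each value is unknown.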
